A study of Danio rerio with 17 samples.

Results

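The genes nr1d1, nr1d2a and nr1d2b, here called the Rev-erb genes, encode zebrafish Rev-erb alpha and beta. Their signal was followed in the liver of transgenic fish on different diets. They were chosen by name as the nr1d1 and nr1d2 members of the nr1d family, after the difference of nr1d1 between DIO+OF and DIO livers of the HBx,src line had been seen. They make up 3 of the 20908 genes that the annotation names through a probe set with 1 symbol, and each is measured by 1 probe set. The values of these 3 genes in the HBx,src line are therefore given as a description, with no test, and their tests are given for the HBx,src,p53 line only. Earlier results of the HBx,src,p53 arrays were known too when the genes were chosen, so those tests are not independent of the choice.

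Rev-erb alpha, encoded by nr1d1, and Rev-erb beta, encoded in zebrafish by the duplicates nr1d2a and nr1d2b, are nuclear receptors that act as transcriptional repressors. In mouse liver they bind heme, occupy ROR elements in competition with the ROR activators, recruit the NCoR corepressor with the histone deacetylase HDAC3, and lower transcription of Bmal1, Clock and Npas2. The circadian activators in turn drive the Rev-erb genes, so their transcripts rise and fall over the day, and the level in a single sample depends on the hour it was taken. The zebrafish liver holds such a peripheral clock, but neither the hour at which fish were sampled nor their light schedule is stated in the sources.

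Livers came from fish labelled as female and 6 months old and were measured on 17 one-colour arrays. The HBx,src,p53 line carried the HBx and src transgenes on a p53-/+ background, and its groups were DIO+OF (n = 3), DIO (n = 3) and NOR (n = 2). The HBx,src line carried both transgenes, with no p53 mutation in its labels, and had 3 arrays in each of the same groups. From the age of 3 months, DIO fish, made obese by overfeeding, received 83 mg of Artemia cysts per fish and day and NOR fish on the normal diet received 6.9 mg. DIO+OF fish were on the DIO diet and, starting at 4 months, took 300 mg/kg of Oligo-Fucoidan (OF), a low-molecular-weight fucoidan from brown seaweed, by gavage thrice a week for a month. DIO and NOR fish were labelled as untreated mock. Whether they were gavaged is not stated, so OF and the handling it needs cannot be told apart. HBx, the hepatitis B virus X protein, and src, a tyrosine kinase, were expressed in hepatocytes from the fabp10a promoter. All HBx,src arrays were labelled batch 1 and all HBx,src,p53 arrays batch 2, and the effects of line and of batch cannot be told apart. Levels are therefore compared only within a line. Nothing in the labels says whether a replicate was 1 fish or a pool, so the p-values measure the spread between these samples, which may be technical.

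The hepatocyte markers fabp10a (12.08 to 13.26 in HBx,src,p53, 12.27 to 12.74 in HBx,src) and tfa (13.26 to 13.69 in HBx,src,p53, 13.31 to 13.55 in HBx,src) had high log2 signal on all arrays. The median log2 signal of an array was 2.55 to 2.68 in the HBx,src,p53 line and 2.1 to 2.21 in the HBx,src line. One array stood apart, replicate 3 of HBx,src,p53 DIO+OF, where the yolk protein gene vtg2 had a log2 signal of 2.76, against 13.75 to 14.04 on the other 16 arrays. Livers of egg-laying females express the yolk proteins strongly, so this value goes against the female label of that array. Calls of named genes in DIO+OF against DIO livers of this line are also given without it.

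nr1d1 had a high signal in every DIO+OF liver of both lines and a lower signal in every DIO liver. In the HBx,src,p53 line its log2 signal was 9.41, 9.88 and 9.96 in DIO+OF livers, 4.40, 5.73 and 5.51 in DIO livers, and 7.28 and 6.60 in NOR livers. The groups did not overlap, and NOR livers lay between the others. nr1d1 rose 23.2-fold with DIO+OF against DIO (log2 fold change 4.54 ± 0.44 SE, limma adjusted p = 0.000917), the 3rd highest log2 fold change of all genes. It also rose in DIO+OF against NOR livers, by 2.81 ± 0.49 on the log2 scale or 7.03-fold (adjusted p = 0.00809), and this call was lost without NOR replicate 2 (adjusted p = 0.0908). In DIO against NOR livers its log2 fold change was -1.73 ± 0.49, or 3.31-fold lower, and missed the threshold (adjusted p = 0.0774, unadjusted p = 0.00344). Without replicate 3 of HBx,src,p53 DIO+OF, the DIO+OF against DIO value was 4.43 (adjusted p = 0.00533) and the DIO+OF against NOR value 2.71 (adjusted p = 0.0252).

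The log2 signal of nr1d1 in the HBx,src line was 8.12, 8.38 and 8.26 in DIO+OF livers, 2.96, 5.02 and 4.29 in DIO livers, and 3.23, 3.39 and 3.54 in NOR livers. DIO+OF livers lay 3.11 log2 units above the highest DIO liver and 4.58 above the highest NOR liver, while DIO and NOR livers overlapped. The log2 fold change was 4.17 ± 0.44 (18.0-fold) for DIO+OF against DIO and 4.87 ± 0.44 (29.2-fold) for DIO+OF against NOR. The log2 fold change for DIO against NOR was 0.70 ± 0.44, with the DIO liver at 2.96 below all 3 NOR livers, and it was 1.26 without that liver (DIO replicate 1) and 0.24 without DIO replicate 2. The order of the group means was thus DIO+OF, NOR, DIO in the HBx,src,p53 line and DIO+OF, DIO, NOR in the HBx,src line, where the last groups were not separated. The difference between the lines was not tested for the Rev-erb genes.

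**Figure D1:**
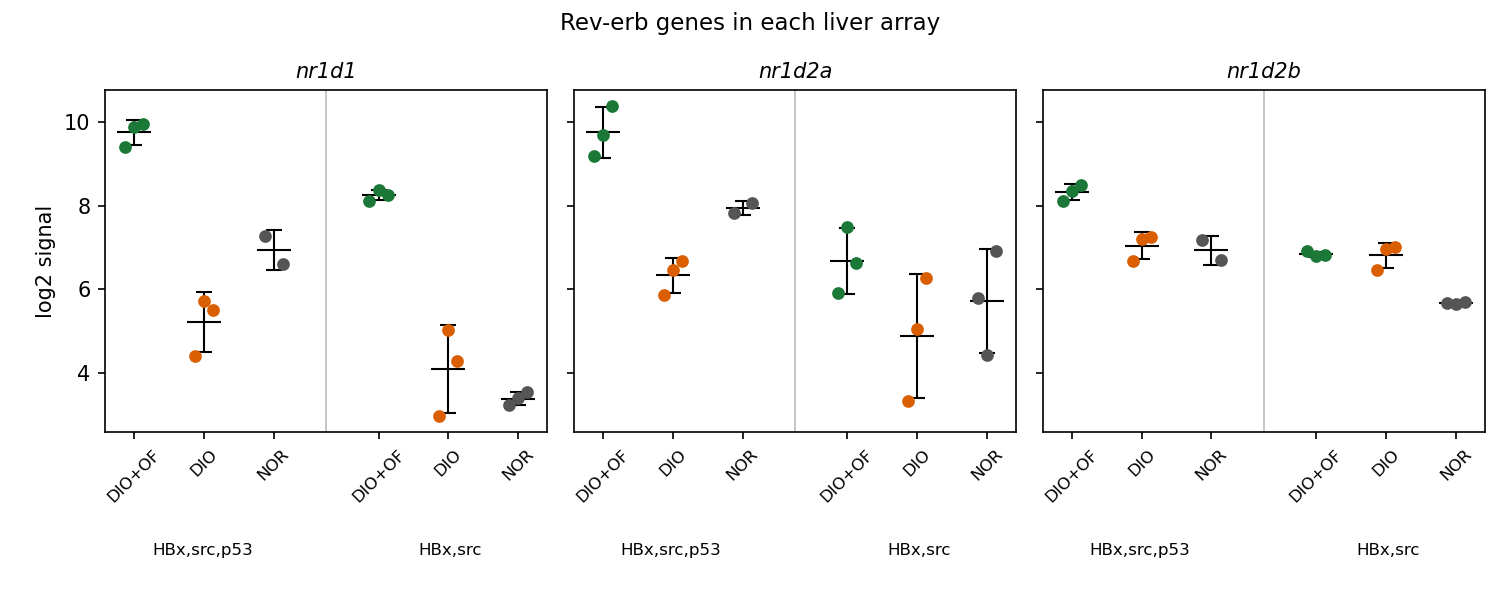
Log2 signal of nr1d1, nr1d2a and nr1d2b on each array (vertical axis) in the DIO+OF, DIO and NOR groups of the HBx,src,p53 line (left of the grey line in each panel) and the HBx,src line (right of it). Points are arrays, and black bars are the group mean ± SD; nr1d1 averaged 9.75 in DIO+OF and 5.21 in DIO livers of the HBx,src,p53 line, and 8.26 in DIO+OF and 4.09 in DIO livers of the HBx,src line.

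nr1d2a, a duplicate that encodes Rev-erb beta, followed the order of nr1d1 in the HBx,src,p53 line. Its log2 signal was 9.18, 9.69 and 10.39 in DIO+OF livers, 5.87, 6.46 and 6.67 in DIO livers, and 7.83 and 8.07 in NOR livers. All DIO+OF livers lay above all NOR livers, and these above all DIO livers. It rose 10.7-fold with DIO+OF against DIO (log2 fold change 3.42 ± 0.70, limma adjusted p = 0.0292). The call rested on single arrays: without replicate 3 of DIO+OF the value was 3.10 (adjusted p = 0.12), and leaving out replicate 2 of DIO+OF gave an adjusted p of 0.0734. Leaving out DIO replicate 1, 2 or 3 gave adjusted p-values of 0.0848, 0.0621 and 0.0569. The log2 fold changes of -1.61 ± 0.78 in DIO against NOR livers (adjusted p = 0.331) and 1.80 ± 0.78 in DIO+OF against NOR livers (adjusted p = 0.276) did not pass.

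In the HBx,src line the arrays of nr1d2a spread widely within each group. The log2 signal was 5.92, 7.49 and 6.63 in DIO+OF livers, 3.33, 5.06 and 6.28 in DIO livers, and 5.80, 4.44 and 6.92 in NOR livers. All groups overlapped, with the highest DIO liver above the lowest DIO+OF liver. The log2 fold change was 1.80 ± 0.70 for DIO+OF against DIO, -0.83 ± 0.70 for DIO against NOR and 0.96 ± 0.70 for DIO+OF against NOR. Leaving out DIO replicate 1, the lowest array, gave 1.02 for DIO+OF against DIO and -0.05 for DIO against NOR.

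nr1d2b, the other Rev-erb beta gene, had a smaller log2 fold change with DIO+OF against DIO than nr1d1 and nr1d2a in both lines. Its log2 signal in the HBx,src,p53 line was 8.11, 8.35 and 8.50 in DIO+OF livers, 6.68, 7.20 and 7.25 in DIO livers, and 7.17 and 6.69 in NOR livers. DIO+OF livers lay above all others, and DIO and NOR livers overlapped. nr1d2b rose 2.43-fold with DIO+OF against DIO (log2 fold change 1.28 ± 0.20, limma adjusted p = 0.00764) and 2.62-fold with DIO+OF against NOR (1.39 ± 0.23, adjusted p = 0.00633). The first value was 1.19 without replicate 3 of DIO+OF (adjusted p = 0.0395), and 1.28 with an adjusted p of 0.0771 when only the arrays of this line were fitted. The DIO+OF against NOR value was 1.3 without replicate 3 of DIO+OF (adjusted p = 0.0198), and 1.15 without NOR replicate 2 (adjusted p = 0.0783). Its DIO against NOR value was 0.11 ± 0.23 (adjusted p = 0.879).

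In HBx,src livers the step of nr1d2b lay between the diets. The log2 signal was 6.91, 6.80 and 6.81 in DIO+OF livers, 6.45, 6.96 and 7.01 in DIO livers, and 5.67, 5.65 and 5.70 in NOR livers. DIO+OF and DIO livers overlapped, and both lay above every NOR liver. The log2 fold change was 1.13 ± 0.20 (2.19-fold) for DIO against NOR and 1.17 ± 0.20 (2.25-fold) for DIO+OF against NOR, but 0.04 ± 0.20 for DIO+OF against DIO.

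All 3 Rev-erb genes were called higher in DIO+OF against DIO livers of the HBx,src,p53 line, where 0.814% of all 75212 probe sets were called higher. The other genes of the family, nr1d4a and nr1d4b, were not called there. The arrays of the 3 Rev-erb genes did not overlap, which was so for 10.2% of all probe sets in that direction. In DIO+OF against NOR livers of this line 2 of 3 were called higher (nr1d1 and nr1d2b), against 1.65% of all probe sets, and all 3 had no overlap, against 14.7%. These comparisons share their DIO+OF arrays, and the genes were chosen with earlier results of these arrays known. In DIO against NOR livers none of the 3 was called in the limma fit, where 2.91% of probe sets were called in either direction, and only nr1d1 had an unadjusted p below 0.05. In that comparison nr1d1 and nr1d2a had DIO arrays wholly below the NOR arrays, as had 19.0% of all probe sets. In HBx,src, 1 of 3 (nr1d1) had DIO+OF arrays wholly above the DIO arrays, as had 6.51% of probe sets, and nothing is read from that count because it chose the genes. There, 1 of 3 (nr1d2b) had DIO arrays wholly above NOR arrays, as had 6.85% of probe sets. For DIO+OF against NOR 2 of 3 (nr1d1 and nr1d2b) did not overlap there, as did 5.14% of probe sets in that direction, and nothing is read from that count either, since it reuses the DIO+OF arrays of nr1d1.

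**Figure D2:**
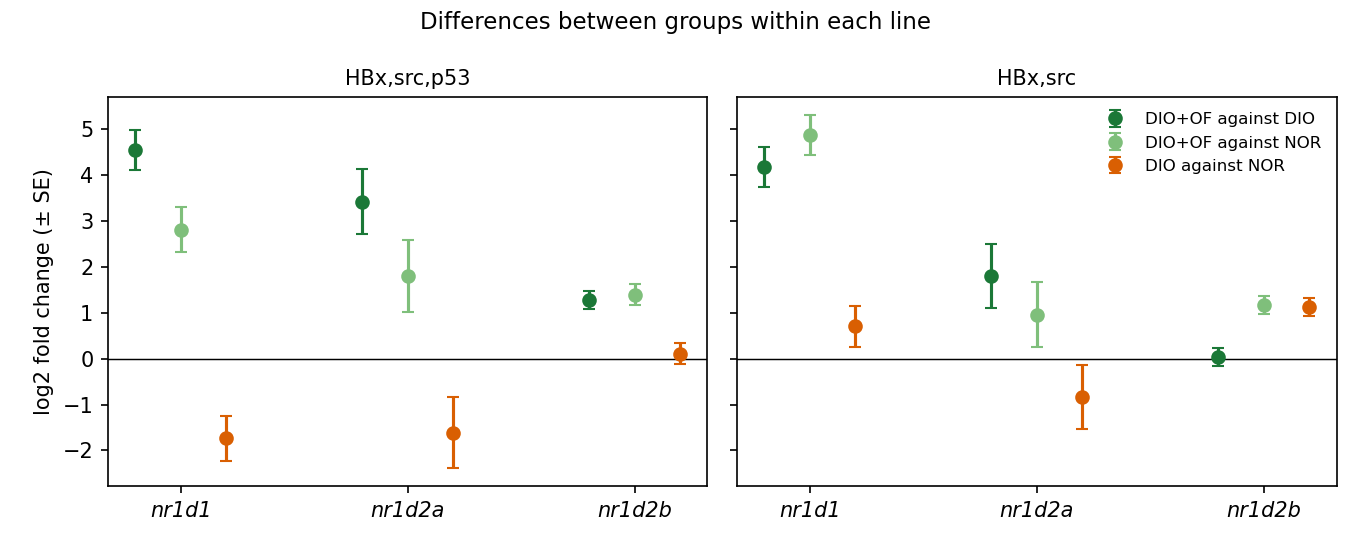
Log2 fold changes (vertical axis, points, with bars of 1 SE from the fit over all 17 arrays) of the Rev-erb genes within the HBx,src,p53 line (left) and the HBx,src line (right), for DIO+OF against DIO, DIO+OF against NOR and DIO against NOR. nr1d1 lies above 4 with DIO+OF against DIO in both panels, while nr1d2b is at 1.28 in the left panel and at 0.04 in the right panel; the HBx,src values have no test.

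The remaining genes of the family, nr1d4a and nr1d4b, were looked up after the values were seen. Neither was called in the HBx,src,p53 line. nr1d4a had a log2 signal of 6.81, 6.71 and 3.04 in DIO+OF livers, 5.18 to 6.41 in DIO livers and 4.91 to 5.82 in NOR livers, and the low value belonged to replicate 3, the array that stood apart. Its DIO+OF against DIO log2 fold change was -0.21 ± 0.91 (adjusted p = 0.953) with that array and 1.04 ± 0.72 without it (adjusted p = 0.657), when DIO+OF livers lay above all DIO and NOR livers. nr1d4b, given by the brighter of its 2 probe sets, had a log2 signal of 2.65 to 3.82 in DIO+OF livers, 2.39 to 2.82 in DIO livers and 2.04 to 3.0 in NOR livers. These values were low, with array medians of 2.55 to 2.68 in this line. Its log2 fold change was 0.44 ± 0.36 with replicate 3 (adjusted p = 0.626) and 0.62 ± 0.40 without it (adjusted p = 0.619). With all arrays, the groups of both genes overlapped in every comparison of both lines.

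The other clock genes were counted from a list of activators, repressors and clock outputs, of which 43 were measured. This list was chosen with earlier results of these data known, so its counts are not independent of that choice. In DIO+OF against DIO livers of the HBx,src,p53 line 10 rose and 1 fell (23.3% and 2.33% of the list, against 0.814% and 0.766% of all probe sets), and 32 did not pass. The median log2 fold change of the list was 0.55, against 0.04 over all genes. The calls fell to 6, of which 5 were among the original calls, without replicate 3 of DIO+OF, and to 6 without DIO replicate 1. The 5 genes that passed whichever array was left out were per1a, per2, cry1a, cry2 and bhlhe41. Without replicate 3 of DIO+OF their log2 fold changes were 2.47 (adjusted p = 0.0255), 1.9 (0.0476), 1.46 (0.0282), 2.12 (0.0108) and 3.31 (0.00944), in that order.

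The changed genes lay mainly among the genes listed as repressors, where 8 of 21 rose and 1 fell, against 0.814% and 0.766% of all probe sets. Their median log2 fold change was 1.34, against 0.04 over all genes. That list also holds cry4 and cry5, and whether each listed gene represses the clock was not tested. The calls of per1b, cry3a, nfil3-2 and nfil3-6 were lost without replicate 3 of DIO+OF. The period genes encode the partners of the cryptochromes in the repressor complex. per1a had a log2 signal of 6.45, 6.97 and 7.63 in DIO+OF livers and 4.52, 3.86 and 4.33 in DIO livers of the HBx,src,p53 line, with no overlap, and rose by 2.78 ± 0.41 on the log2 scale (adjusted p = 0.00473). per1b rose by 2.56 ± 0.44 (adjusted p = 0.0121, or 0.0604 without replicate 3 of DIO+OF) and per2, which light induces in zebrafish, by 2.12 ± 0.35 (adjusted p = 0.00909). per3 had a log2 fold change of 1.03 ± 0.27 and did not pass (adjusted p = 0.0781). Dimmer probe sets of per1b and per2, at mean log2 signals of 3.46 and 1.8, gave smaller values of 1.0 and 0.25.

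Among the cryptochromes cry2 and cry1a were called higher and cry3a lower in HBx,src,p53. cry3b, lower in all DIO+OF than in all DIO livers, did not pass (-1.4 ± 0.35, limma adjusted p = 0.0633). Nor did cry1b (2.02 ± 0.56, adjusted p = 0.0961), cry5 (1.34 ± 0.31, 0.0504), cry3 (0.76 ± 0.56, 0.586) or cry4 (-0.25 ± 0.23, 0.681). cry2 had a log2 signal of 7.60, 7.91 and 7.95 in DIO+OF livers and 5.37, 5.90 and 5.63 in DIO livers of the HBx,src,p53 line, a rise of 2.19 ± 0.27 (adjusted p = 0.00171), and its dimmer probe set gave 0.59. cry1a rose by 1.56 ± 0.23 (adjusted p = 0.00527). cry3a ran the other way, with 9.17, 9.31 and 9.63 in DIO+OF livers and 10.65, 10.08 and 10.13 in DIO livers, and a log2 fold change of -0.92 ± 0.20 (adjusted p = 0.0379). The call of cry3a was the least stable of the list, kept under 8 of 17 left-out arrays (adjusted p = 0.0559 without replicate 3 of DIO+OF). Of the further genes listed as repressors, bhlhe41, which encodes an E-box repressor, rose by 2.98 ± 0.43 (adjusted p = 0.00413). nfil3-2 and nfil3-6, relatives of the mammalian bZIP repressor gene Nfil3, rose by 2.49 ± 0.51 (adjusted p = 0.028) and 2.15 ± 0.39 (adjusted p = 0.0164). Without replicate 3 of DIO+OF their adjusted p-values were 0.103 and 0.0757.

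Of the clock output genes of the PAR bZIP class, dbpb and tefa rose. dbpb had a log2 signal of 8.90, 8.25 and 9.55 in DIO+OF livers and 6.32, 5.65 and 6.82 in DIO livers of the HBx,src,p53 line and rose by 2.63 ± 0.53 (adjusted p = 0.0262), with 0.34 from its dimmer probe set. tefa rose by 2.51 ± 0.52 (adjusted p = 0.031), while dbpa (1.76 ± 0.47, adjusted p = 0.0847) and tefb (0.99 ± 0.43, adjusted p = 0.301) did not pass. In all, 2 of the 12 PAR bZIP genes and clock kinases rose and 0 fell, against 0.814% and 0.766% of all probe sets. Neither dbpb (adjusted p = 0.113) nor tefa (adjusted p = 0.114) passed without replicate 3 of DIO+OF.

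None of the 10 measured activators, which include the genes that Rev-erb represses in mouse, was called in DIO+OF against DIO livers of this line. The log2 fold changes were -0.19 ± 0.43 for bmal1a, -0.50 ± 0.34 for bmal1b, -0.53 ± 0.34 for clocka, 0.45 ± 0.19 for clockb and -0.86 ± 0.37 for npas2, with adjusted p-values of 0.29 to 0.9. In DIO+OF against NOR livers of this line, 2 of the 10 activators were called lower and 0 higher. There 2.17% of all probe sets were called lower and 1.65% higher. The activators were bmal2 (-2.77, limma adjusted p = 0.00218) and npas2 (-1.67, adjusted p = 0.04, or 0.095 without replicate 3 of DIO+OF). The call of bmal2 was kept whichever array was left out and that of npas2 under 7 of 17. Of the 43 clock genes, 13 rose and 3 fell in that comparison, and 11 of these 16 calls were kept without replicate 3 of DIO+OF. bmal2 was already lower in DIO against NOR livers (-1.99 ± 0.36, limma adjusted p = 0.0127). Its DIO+OF against DIO value was -0.78 ± 0.32 and was not called (adjusted p = 0.274). The DIO against NOR value of npas2 was -0.81 ± 0.41 (adjusted p = 0.361). bmal1b had a log2 signal of 5.16, 5.30 and 5.73 in DIO+OF livers and 6.02, 5.32 and 6.37 in DIO livers, and these overlapped. npas2 had 6.11, 6.21 and 6.00 in DIO+OF livers, all below the 6.49, 7.41 and 7.01 of DIO livers. Of all probe sets, 8.9% had no overlap in that direction. clockb went the other way, with 7.97, 8.13 and 8.08 in DIO+OF livers, all above the 7.56, 7.44 and 7.84 of DIO livers. In that direction 10.2% of all probe sets had no overlap, and the dimmer probe sets of clockb gave -0.06 to 0.42.

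**Figure D3:**
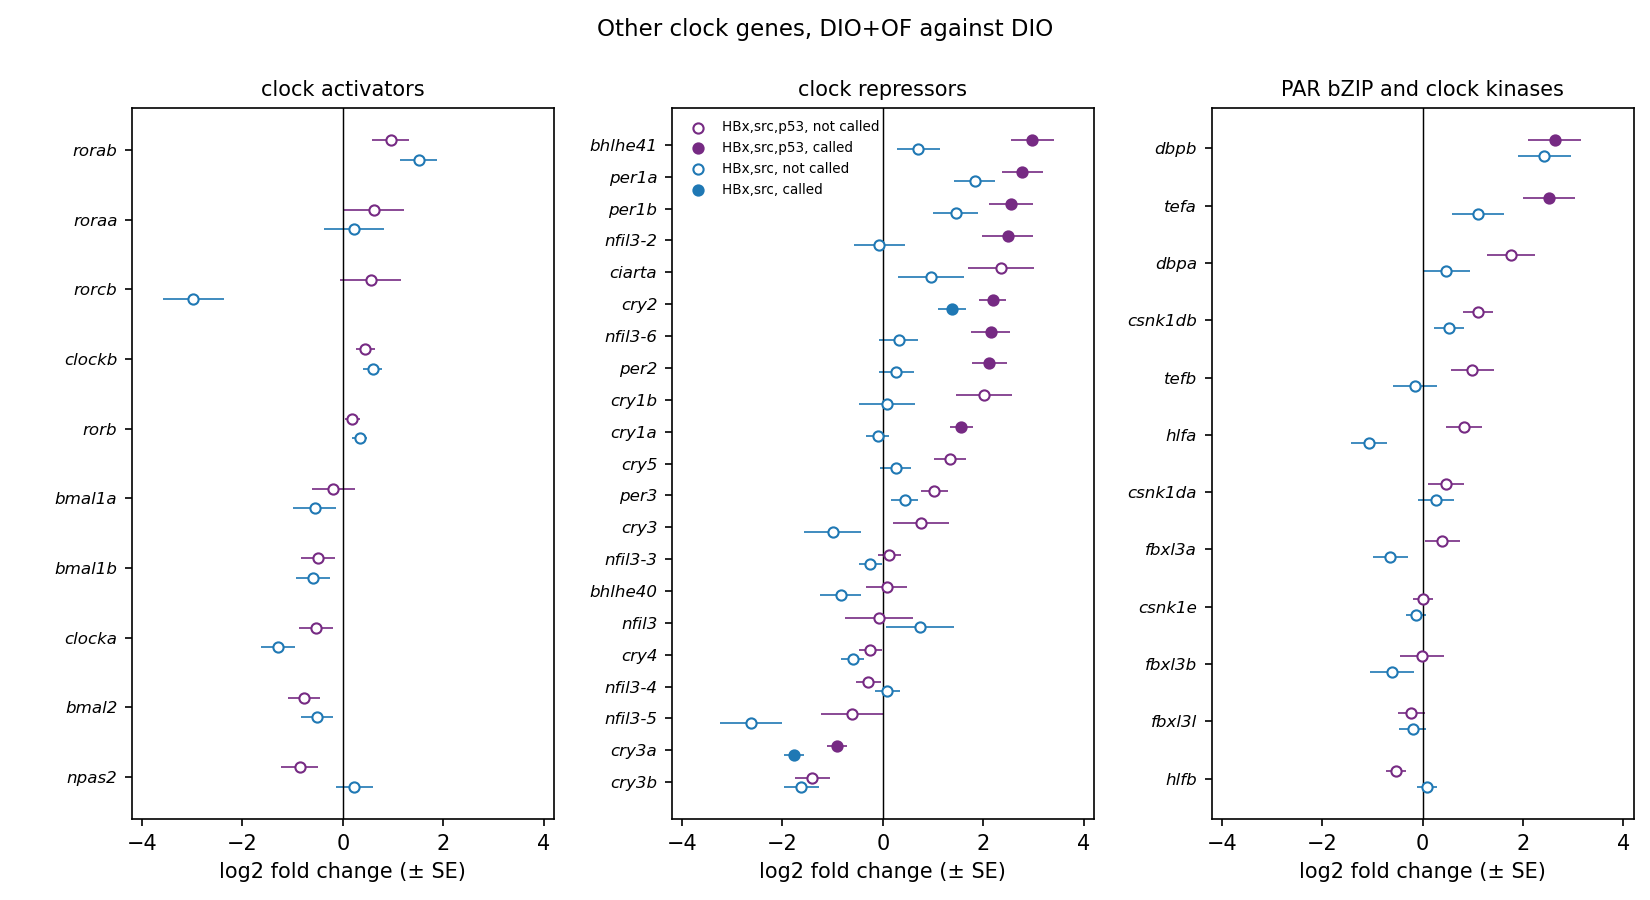
Log2 fold change ± SE (horizontal axis) for DIO+OF against DIO of the 43 other clock genes, by list (panels), in the HBx,src,p53 line (purple, upper point of each gene) and the HBx,src line (blue, lower point). Filled points passed an adjusted p of 0.05; these are 11 genes in the HBx,src,p53 line and 2 in the HBx,src line, and none lies among the activators.

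In the HBx,src line 2 of the 43 genes were called with DIO+OF against DIO, 1 in each direction (2.33% each, against 0.233% higher and 0.186% lower of all probe sets). cry3a fell to a log2 signal of 8.36, 8.10 and 8.42 in DIO+OF livers, against 10.19, 9.94 and 10.01 in DIO livers (-1.76 ± 0.20, adjusted p = 0.007). cry2 rose by 1.38 ± 0.27 (adjusted p = 0.0435). cry3b, at -1.62 ± 0.35, did not pass (adjusted p = 0.0628). The call of cry3a was kept whichever array was left out and that of cry2 under 4 of 17, and a fit of the HBx,src arrays alone left neither.

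Of the clock genes called with DIO+OF against DIO in the HBx,src,p53 line, 9 did not pass in that comparison in HBx,src. Among them dbpb had a log2 fold change of 2.42 ± 0.53 (adjusted p = 0.0647) and per1a of 1.83 ± 0.41 (adjusted p = 0.0725). The difference between the lines in DIO+OF against DIO was examined for only part of the clock list. That part held every clock gene called in this comparison in either line. Among the genes examined it passed for cry1a alone, a call lost under 13 of 17 left-out arrays. Across the list, 19 genes were above 0 in both lines, 10 were below 0 in both and 14 had opposite signs. rorcb, which encodes an ROR activator that binds the same elements as the Rev-erbs, had a log2 signal of 3.51, 3.03 and 5.99 in DIO+OF livers of HBx,src and 7.83, 6.57 and 7.06 in DIO livers. Its log2 fold change of -2.98 ± 0.61 did not pass (adjusted p = 0.0542).

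The diets were compared over the same list. In DIO against NOR livers of the HBx,src,p53 line 1 of 43 rose and 2 fell (2.33% and 4.65%, against 1.06% and 1.85% of all probe sets), with a median of -0.16, against -0.01 over all genes. bmal2 fell by 1.99 ± 0.36 on the log2 scale (adjusted p = 0.0127) and clockb by 0.90 ± 0.21 (adjusted p = 0.0407), both activators, and the repressor bhlhe40 rose by 1.93 ± 0.46 (adjusted p = 0.0393). These calls went to 0 without either NOR array and to 1 without replicate 1 of DIO of this line or replicate 3 of DIO of HBx,src. The 3 dimmer probe sets of clockb gave -0.45 to -0.59. In the HBx,src line no clock gene was called in DIO against NOR livers, where limma called 0.00665% of all probe sets. At a fold of at least 2 with an unadjusted p below 0.05, 5 clock genes were higher and 1 lower, against 0.725% and 1.43% of all probe sets. bhlhe41 (2.02 ± 0.43, adjusted p = 0.343) and per3 (1.41 ± 0.27, adjusted p = 0.24) were among the clock genes with the smallest p.

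**Figure D4:**
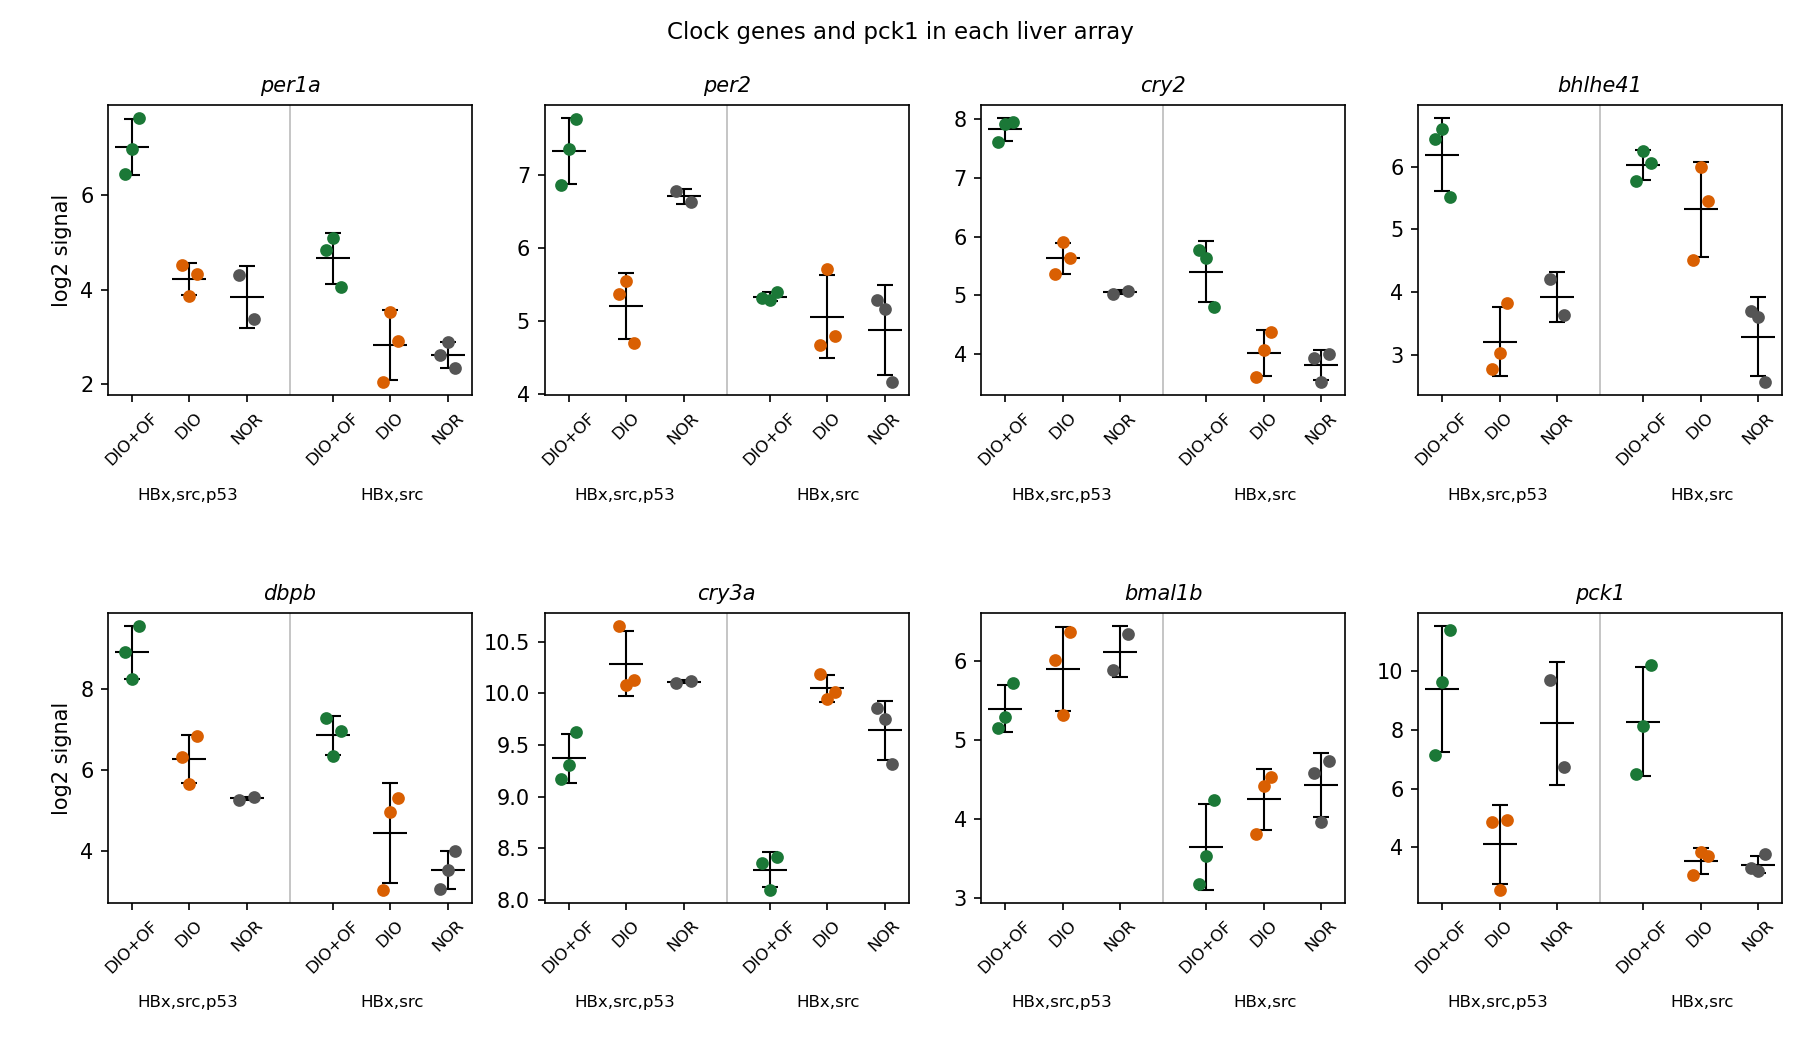
Log2 signal on each array (vertical axes, scaled per gene) of 7 clock genes and pck1 in the DIO+OF, DIO and NOR groups of the HBx,src,p53 line (left of the grey line) and the HBx,src line (right of it). Points are arrays and black bars the group mean ± SD; per1a, cry2 and dbpb lie higher and cry3a lower in all DIO+OF livers than in all DIO livers of the same line, while bmal1b overlaps between DIO+OF and DIO.

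The proteins through which Rev-erb acts were measured as transcripts too. Of the 6 genes of the NCoR and HDAC3 complex none was called in DIO+OF against DIO or DIO against NOR livers of either line. In DIO+OF against DIO livers of HBx,src,p53, ncor1 had a log2 fold change of 0.57 ± 0.33 (adjusted p = 0.467) and hdac3 of 0.67 ± 0.25 (adjusted p = 0.218). Of 10 genes of the synthesis of heme, the Rev-erb ligand, none was called with DIO+OF against DIO in either line. In DIO against NOR livers of HBx,src,p53 slc25a38b, relative of a mitochondrial glycine carrier gene, fell by 3.07 ± 0.53 (adjusted p = 0.00932) and hmbsb, which encodes a heme pathway enzyme, by 1.05 ± 0.25 (adjusted p = 0.0417). Of the 10 genes, 2 thus fell and 0 rose, against 1.85% and 1.06% of all probe sets. None of 5 genes of heme breakdown was called in these comparisons.

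Of 25 measured genes that Rev-erb controls in mouse liver metabolism, 2 rose with DIO+OF against DIO in HBx,src,p53, both of glucose production, and 0 fell, where 0.814% of all probe sets were called higher and 0.766% lower. pck1, which encodes phosphoenolpyruvate carboxykinase, had a log2 signal of 7.15, 9.61 and 11.40 in DIO+OF livers and 4.85, 2.56 and 4.92 in DIO livers, a rise of 5.28 ± 1.1 (adjusted p = 0.0304). g6pc1a.1, which encodes a glucose-6-phosphatase, rose by 2.1 ± 0.46 (adjusted p = 0.0368). Replicate 3 of DIO+OF had the highest signal of both, and without it their values were 4.27 (adjusted p = 0.125) and 1.57 (adjusted p = 0.129). The call of pck1 was also lost without replicate 2 of DIO+OF or any 1 of the DIO arrays of that line, and that of g6pc1a.1 was kept under 9 of 17 left-out arrays. In the HBx,src line pck1 had a log2 fold change of 4.74 ± 1.1 (adjusted p = 0.081) and g6pc1a.1 of -0.44 ± 0.46 (adjusted p = 0.807). None of the 25 was called in DIO against NOR livers of either line.

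Among 17 other receptors of the NR1 class, pparg rose with DIO+OF against DIO in HBx,src,p53 (1.61 ± 0.23, adjusted p = 0.00413), also without replicate 3 of DIO+OF (1.7, adjusted p = 0.0142). There 1 of the 17 was called higher and 0 lower, against 0.814% and 0.766% of all probe sets. In DIO against NOR livers of this line vdrb, a vitamin D receptor gene, rose by 3.04 ± 0.52 (adjusted p = 0.0093), nr1h5 by 2.41 ± 0.39 (adjusted p = 0.00783) and ppardb by 1.64 ± 0.23 (adjusted p = 0.00341). raraa, a retinoic acid receptor gene, fell by 1.42 ± 0.34 (adjusted p = 0.0406). In all, 3 of the 17 receptors rose and 1 fell with DIO against NOR, against 1.06% and 1.85% of all probe sets. Of the heme synthesis and receptor genes called in DIO against NOR livers, ppardb passed whichever array was left out. The calls of nr1h5 and vdrb were lost only without NOR replicate 2, and that of slc25a38b without either NOR array. hmbsb and raraa were each kept under 7 of 17 left-out arrays. None of the heme synthesis and receptor genes was called in these comparisons of the HBx,src line.

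The genes whose signal ran most like nr1d1 were found by Pearson's r within each line, over 8 arrays in HBx,src,p53 and 9 in HBx,src. Since the groups stood apart, r mostly restates the differences between groups, and it is given as a description. ddah1 came first (r = 0.94 in HBx,src,p53 and 0.91 in HBx,src), with DIO+OF against DIO differences of 1.75 and 1.56 on the log2 scale, followed by bbox1 (0.91 and 0.98), which encodes the last enzyme of carnitine synthesis. cry3a ran most opposite (-0.91 and -0.92). nr1d2a ran most like cybc1 (0.90 in both lines). The signal of cybc1 was low, with group means of 2.15 to 2.55 in HBx,src, where array medians were 2.1 to 2.21. nr1d2b ran most like abcc2 (0.93 and 0.96), which encodes a bile canalicular transporter, and cyp1a (0.97 and 0.90). Between the Rev-erb genes, r of nr1d1 with nr1d2a was 0.98 in HBx,src,p53 and 0.58 in HBx,src, that of nr1d1 with nr1d2b was 0.91 and 0.65, and that of nr1d2a with nr1d2b was 0.86 and 0.17.

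Markers of other cells moved with these groups in part, and their part in the results was not tested. In bulk liver, fewer cells of a type and less RNA per cell cannot be told apart. The log2 of the summed signal of 12 hepatocyte markers was 15.88 to 16.41 in DIO+OF livers, 15.66 to 15.89 in DIO livers and 15.7 to 15.74 in NOR livers of HBx,src,p53, and 15.44 to 15.76, 15.73 to 15.82 and 15.69 to 15.73 in those groups of HBx,src. With DIO+OF against DIO, 11 of these 12 were above 0 in HBx,src,p53 and 1 was called higher, against 0.814% of all probe sets. In HBx,src, 9 of the 12 were below 0 in that comparison and 0 were called. For 14 exocrine pancreas markers the log2 summed signal was 10.69 to 14.71 in DIO+OF livers and 12.63 to 14.25 in DIO livers of HBx,src,p53. In HBx,src it was 8.56 to 9.69 in DIO+OF livers and 9.5 to 11.87 in DIO livers. With DIO+OF against DIO, 13 of these 14 were below 0 in HBx,src,p53 and 14 of 14 in HBx,src, and 0 were called. With DIO against NOR, 14 of 14 were above 0 in HBx,src,p53 and 10 of 14 in HBx,src, and 0 were called. For 14 ovary markers the log2 summed signal was 5.84 to 6.12 in DIO+OF livers and 6.49 to 8.22 in DIO livers of HBx,src,p53, which did not overlap. In HBx,src it was 5.64 to 5.93 in DIO+OF livers and 5.88 to 5.95 in DIO livers, which overlapped. The DIO+OF sums add 14 low signals, and without a detection call these cannot be said to lie above background. In HBx,src,p53, 13 of these 14 were below 0 with DIO+OF against DIO and 2 were called lower (zp2.5 and gdf9), against 0.766% of all probe sets. With DIO against NOR 13 of 14 were above 0 and 1 was called higher (zp2.5), against 1.06% of all probe sets. In HBx,src, 11 of the 14 were below 0 with DIO+OF against DIO and 0 were called. For 8 red blood cell markers the log2 summed signal was 9.2 to 11.15 in DIO+OF livers and 8.19 to 9.37 in DIO livers of HBx,src,p53. In HBx,src it was 9.05 to 10.03 in DIO+OF livers and 8.95 to 9.61 in DIO livers. These groups overlapped in both lines. With DIO+OF against DIO, 7 of the 8 were above 0 in HBx,src,p53 and 5 of the 8 in HBx,src, and 0 were called.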

How the data were processed

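RNA from 17 zebrafish livers was hybridised by the authors to ZebGene ST arrays and, per the labels, processed with the Transcriptome Analysis Console (its version, algorithm and genome build are not stated there). The deposited table holds a log2 signal for each of 75212 probe sets; the scale was read from its values. No detection call was used, so low values cannot be said to lie above background. Of the probe sets, 30358 had 1 gene symbol, 1015 several and 43839 none listed. A gene was represented by its probe set with the highest mean. No further normalization was applied. The number of arrays limits the precision.

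Group means were estimated from the 17 arrays together with limma 3.58.1 in R 4.3.3 (lmFit, contrasts, eBayes), with Benjamini-Hochberg adjustment over all probe sets and a threshold of 0.05. The fit was tested on simulated data. Alternatives were the arrays of a line alone, quantile normalization, median centring, leaving out the dimmest 40%, probe sets with 1 symbol, a trended robust prior, array weights, a replicate block, the most variable probe set, for the Rev-erb genes the mean of all probe sets, the methods' threshold (a fold of at least 2 with unadjusted p below 0.05) and leaving out each array. Named were the Rev-erb genes, the clock genes called, with the smallest p or known as targets, the called genes of the other lists and the genes most like a member, some of which are given by count. The members and lists were chosen with earlier results of these data known.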

Additional observations from a re-analysis of the deposited data

Results flagged for a closer look

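The DIO+OF against DIO difference of cry1a, a cryptochrome gene, differed between the lines by 1.66 ± 0.33 on the log2 scale (HBx,src,p53 minus HBx,src, limma interaction term, adjusted p = 0.0396). Leaving out each array gave 1.5 to 1.87, with an adjusted p of 0.0127 to 0.102, and the call was lost with 13 of the 17 arrays left out in turn. Its log2 signal was 7.83, 8.10 and 8.28 in DIO+OF livers and 6.29, 6.51 and 6.71 in DIO livers of HBx,src,p53, with no overlap, and 6.32, 5.79 and 5.67 in DIO+OF livers and 5.60, 6.12 and 6.34 in DIO livers of HBx,src, which overlapped. Line and batch cannot be told apart. Groups of 2 or 3 arrays were too small to test for a single array far from the others.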

How the results depend on the processing

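No result changed direction among those called. With the alternatives other than leaving out an array, 125 of 136 values were counted as kept. Tested values were kept when they stayed on their side of the threshold. The untested values of HBx,src were kept when they moved by less than 1 SD between arrays. Counts of clock genes called have no such side. Smaller moves of these counts were taken as kept, such as from 11 to 8 for DIO+OF against DIO in HBx,src,p53 with the arrays of that line alone. The exceptions were nr1d2b in DIO+OF against DIO livers of HBx,src,p53 with the arrays of that line alone (1.28, adjusted p = 0.0771, where its other alternatives reached down to 0.00545) and counts of clock genes called. At the methods' threshold these were 17 and 7 for DIO+OF against DIO and DIO against NOR in HBx,src,p53, and 11 and 6 in HBx,src. Of all probe sets, 3.67% were higher and 2.86% lower at that threshold for DIO+OF against DIO in HBx,src,p53. For DIO against NOR there these shares were 3.2% and 6.76%. In HBx,src they were 3.1% and 2.1% for DIO+OF against DIO, and 0.725% and 1.43% for DIO against NOR. In HBx,src,p53, DIO against NOR gave 1 clock gene with quantile normalization. In HBx,src, DIO+OF against DIO gave 0 with the arrays of the line alone, 5 without the dimmest 40% of probe sets, 8 with probe sets of 1 symbol and 1 with the trended robust prior. The causes were not tested.

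Leaving out each of the 17 arrays, 247 of 272 values were counted as kept in the same way. That count includes arrays of the other line, which cannot move a fold change. In HBx,src,p53, DIO+OF against DIO ranged over 4.13 to 4.80 for nr1d1 (adjusted p 0.000181 to 0.00555), 3.10 to 3.70 for nr1d2a (0.015 to 0.12), 1.1 to 1.38 for nr1d2b (0.00639 to 0.0395) and 6 to 13 clock genes. DIO against NOR ranged over -2.06 to -1.32 for nr1d1 (0.031 to 0.382), which passed without DIO replicate 1 (0.031) or 2 (0.0493) of HBx,src, and over 0 to 4 clock genes. In HBx,src the clock genes called with DIO+OF against DIO ranged over 1 to 3. The untested DIO+OF against DIO values of that line ranged for nr1d1 over 3.6 to 4.63, nr1d2a over 1.02 to 2.49 and nr1d2b over -0.14 to 0.14. For DIO against NOR they ranged over 0.24 to 1.26, -1.53 to -0.05 and 1.03 to 1.31 in that order.

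Deviations of arrays with the same replicate number correlated at -0.08 to 0.05 in HBx,src,p53 and -0.07 to 0.10 in HBx,src. For different numbers the correlations were -0.08 to 0.10 and -0.12 to 0.16. No pairing by number was seen over all probe sets, but a pairing that touches few genes would be missed. With the replicate number as a block, DIO+OF against DIO in HBx,src,p53 gave 4.54 for nr1d1 (adjusted p = 0.00648), 3.42 for nr1d2a (0.0378), 1.28 for nr1d2b (0.0327) and 8 clock genes, and in HBx,src 0 clock genes. The mean of a gene's probe sets, meant for the Rev-erb genes only, gave no further value, since each has 1 probe set; it was not run for the clock genes. With 2 or 3 arrays per group, small differences could not be shown.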
